A study of Mus musculus with 8 samples.

Results

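In a set of 231 Affymetrix probe sets, every miR-223 null array read lower than every wild-type array, both in cultured bone marrow progenitors at day 4 and in the mature neutrophils grown from them by day 8. The members were chosen by measured values. They were the probe sets without controls whose mean over all 8 arrays was at least 5.51 on the log2 scale, and in which the highest null array lay at least 0.15 below the lowest wild-type array on day 4 and again on day 8. Of 45037 probe sets without controls, 22514 passed the floor of 5.51, and the 231 members came from these. The values of null against wild type are therefore a description of the set and carry no test.

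The study compared wild-type mouse bone marrow with marrow of miR-223 null mice. In all 4 groups marrow progenitors grew in SILAC-IMDM medium with G-CSF, the cytokine that drives granulocyte formation, and SCF, the ligand of c-Kit. Day 4 cells had both factors for 4 days and were sorted for c-Kit and against Gr-1. Day 8 cells had both factors for 6 days and then 42 hours without SCF, and were sorted for Gr-1, a surface mark of granulocytes, and against c-Kit. Days 4 and 8 thus differ in time, SCF and sort at once. The word maturation below stands for all of these together, which cannot be told apart. Wild type and null had 2 arrays each on each day. The labels give neither the age nor the strain background of the mice, and do not say whether replicates were separate animals or cultures, so the spread between replicates may be technical.

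miR-223 is a microRNA of myeloid cells whose level rises as granulocytes mature. A microRNA guides Argonaute to messenger RNAs that pair with its seed, the stretch from base 2 to base 8, and such targets are repressed. Loss of a microRNA is thus known to raise its direct targets, and the rule took probe sets that read in the opposite direction. Whether any member is a target of miR-223 was not tested. The 2 mature strands of the deleted microRNA are shown because they are the designed difference between the genotypes. They come from RefSeq (GRCm38.p6), where the hairpin lies at chrX:96242817-96242926 on the plus strand, and capitals mark the seed.
miR-223-3p: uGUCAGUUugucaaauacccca
miR-223-5p: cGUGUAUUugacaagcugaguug

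The table and the reference do not pair probe sets with genes, and 0 of the 45101 identifiers were found in the gene reference. The members are named by identifier or rank only, and the number of genes behind them is not known. The cell labels could be set only against a control transcript that the table names. Transferrin receptor, which imports iron into dividing cells, read 8.56 to 9.17 at its 3′ control probe set on day 4 and 6.12 to 6.49 on day 8, without overlap of the 4 arrays of each. Markers of neutrophils, progenitors or other blood cells, and the loss of miR-223 itself, could not be checked. In bulk RNA, fewer cells of a type and less RNA per cell cannot be told apart.

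On each day alone the set was a small part of what met the same gap. The null arrays lay lower by the gap for 2044 probe sets on day 4 (9.08% of those above the floor) and for 1196 on day 8 (5.31%), so the members were 11.3% of the first and 19.3% of the second. The same gap in the opposite direction on both days held for 323 probe sets. Another 186 were lower in null on day 4 and higher on day 8, and 22 the other way round. None of the mouse control transcripts (0 of 19 probe sets) lay below wild type by the gap on both days, against 231 of the 22514 probe sets above the floor. At so small a share, 0 of 19 says nothing about the set. Without wild-type day 4 replicate 2 the rule took 415 probe sets, without wild-type day 8 replicate 1 or 2 it took 414 or 362, and without null day 8 replicate 2 it took 446, since fewer arrays have to be separated. When arrays were scaled to the hybridization controls, RNAs of known amount added at the hybridization step, 202 probe sets met the rule and 126 of the 231 were among them. Under that scaling and the other 3 normalizations tried, all 231 still read lower in null on both days with no overlap of arrays. The rule had already set these arrays at least 0.15 apart, and array medians spanned only 0.052. The lack of overlap was thus largely fixed by the rule and is no independent support for the set.

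Most falls were small. On day 4 the median member was 1.37-fold lower in null, with quartiles of 1.25-fold and 1.62-fold. On day 8 the median was 1.33-fold, with quartiles of 1.23-fold and 1.49-fold. The median difference between null and wild type over all probe sets above the floor was -0.006 on day 4 and 0.02 on day 8 (log2), so the set lay away from the centre of the arrays, as its rule required. On both days 133 members fell by 1.25-fold or more, 35 by 1.5-fold or more, and 4 by 2-fold or more. For comparison with the spread, the median SD of 2 arrays among the members was 0.089 in wild type and 0.057 in null on day 4, and 0.064 and 0.06 on day 8 (log2). Over all probe sets above the floor it was 0.0965 and 0.0576 on day 4, and 0.0762 and 0.0694 on day 8. The gap favours probe sets whose replicates lie close, so the spread among the members is not an independent measure of noise.

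Limma, fitted to all 22514 probe sets with Benjamini-Hochberg adjustment, called 102 of the 231 members lower in null on day 4, against 2.14% of all probe sets tested. It called 95 lower on day 8, against 1.22%. It called 51 on both days, which is every probe set so called among the 22514 (0.227%). The rule used these same differences, so nothing is read from those counts. They show only that over 100 members met the gap on a day without passing the genome-wide threshold. The counts over all probe sets moved when 1 array was left out. Each such fit also has 1 group with a single array and fewer arrays to set the estimate of the spread. There were 482 called lower on day 4 and 274 on day 8, and leaving out 1 array at a time gave 100 (without null day 4 replicate 1) to 973 (without wild-type day 4 replicate 2) on day 4. On day 8 the range was 67 (without null day 8 replicate 1) to 414 (without wild-type day 4 replicate 2).

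The members were ranked by their fall on the weaker of the days. The first was 1455869_AT. On day 4 it read 8.59 and 10.19 on the wild-type arrays and 4.60 and 4.63 on the null arrays (log2). On day 8 it read 6.66 and 7.91 in wild type and 4.58 and 4.60 in null. The null arrays sat together below the floor on both days, while the wild-type arrays stood well above it and far from each other. The fall was 27.5-fold on day 4 and 6.47-fold on day 8 by group means. Null values this low depend on a background correction that the sources used here do not give, so the size of the fall is less certain than its direction.

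The second was 1431213_A_AT. Its wild-type arrays read 8.64 and 10.54 on day 4 and 7.25 and 8.77 on day 8, and its null arrays read 5.55 and 5.82, then 5.69 and 5.98. The falls were 15-fold and 4.53-fold. These leading members shared a pattern among the wild-type arrays. Replicate 2 stood above replicate 1 on both days, by 1.61 and 1.25 (log2) in 1455869_AT and by 1.90 and 1.52 in 1431213_A_AT. The null replicates of 1455869_AT differed by only 0.03 and 0.012. What set these wild-type replicates apart was not tested.

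Ranks 3 and 4 were the other members that fell by 2-fold or more on both days. For 1426936_AT the wild-type arrays read 8.92 and 8.54 on day 4 and 8.89 and 8.74 on day 8, and the null arrays 7.32 and 7.16, then 7.49 and 7.73. Its falls were 2.80-fold and 2.30-fold. For 1436883_AT the wild-type arrays read 10.35 and 10.38 on day 4 and 9.11 and 9.08 on day 8, and the null arrays 9.37 and 9.34, then 8.15 and 8.01. Its falls of 2.02-fold on both days were nearly equal, and the SD of 2 arrays was 0.024 in wild type on each day. The array groups of both members lay apart on each day, which the rule required of every member. These members kept a reading well above the floor in null cells, so the falls were partial.

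**Figure D1:**
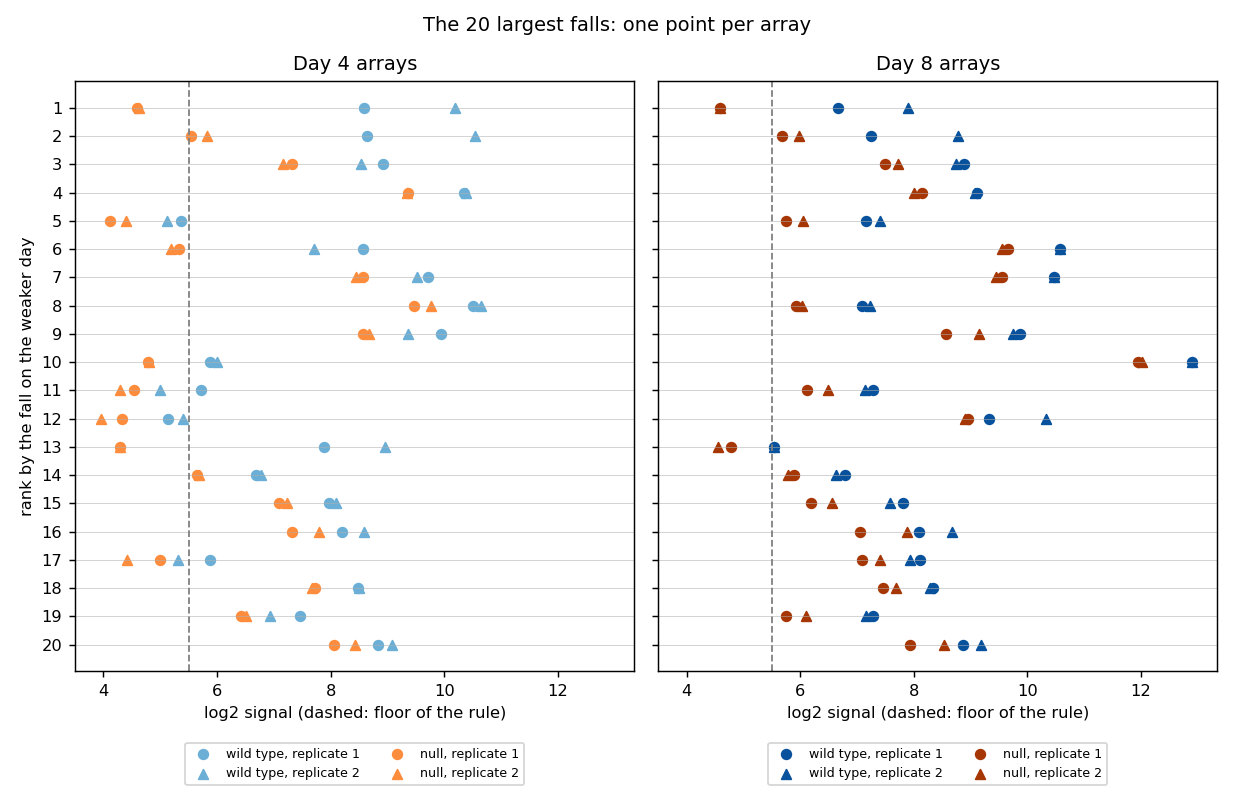
Log2 signal of the 20 members with the largest fall on their weaker day, with day 4 arrays on the left and day 8 arrays on the right; each point is 1 array, circles are replicate 1 and triangles replicate 2, blue is wild type and orange or brown is null. Every null point lies left of both wild-type points of its row, as the rule required. In the first row the null points sit near 4.6, left of the dashed floor of 5.51.

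From the fifth to the twentieth rank, falls ran from 0.72 to 4.12 on day 4 and from 0.75 to 1.39 on day 8 (log2 units below wild type). Rank 16 (1427798_X_AT) and rank 20 (1452077_AT), with 1431213_A_AT, were the 3 members in which replicate 2 read above replicate 1 by at least 0.25 in all 4 groups. That is 1.3% of the members, against 0.0666% of all probe sets above the floor (15 of them), and the reverse order held for 0 members. These 3 were picked after their values were seen, so the shares are a description.

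In 191 members all 4 group means were at or above the floor. Null means lay below it for 25 members on day 4 and for 18 on day 8. For 3 members they did so on both days: 1455869_AT, 1438239_AT and 1442288_AT. In 1442288_AT the null means were 5.48 and 5.50, just under the floor, and its falls were 1.20-fold and 1.27-fold. So a null reading near background on both days, with a wild-type reading far above it on both, was the pattern of 1455869_AT among these 3.

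The size of the fall was next set side by side for the 2 days. It was larger on day 4 for 137 members and larger on day 8 for 94, and in 109 the falls were within 0.15 of each other (log2). It was larger by at least 0.5 on day 4 for 23 members and on day 8 for 7. The widest difference was that of 1438239_AT, which read 7.89 and 8.95 in wild type and 4.29 on both null arrays at day 4. At day 8 it read 5.54 on both wild-type arrays and 4.78 and 4.55 in null. Its fall went from 17.4-fold to 1.83-fold as the wild-type level itself came down to the floor.

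A large difference was also seen in 1440370_AT, whose level rose with maturation. It read 8.56 and 7.71 in wild type and 5.34 and 5.20 in null at day 4, then 10.57 and 10.58 against 9.66 and 9.56 at day 8. The fall was 7.31-fold in progenitors and 1.96-fold in mature neutrophils. The opposite order was led by 1423917_A_AT and 1450646_AT. The first read 7.38 and 7.37 in wild type and 7.11 and 7.15 in null at day 4, but 5.57 and 5.79 against 4.79 and 4.53 at day 8. The second read 9.68 and 9.79 against 9.42 and 9.41 at day 4, and 9.99 and 9.98 against 8.97 and 9.05 at day 8. Both were about 1.2-fold lower in null progenitors (1.19-fold and 1.25-fold) and about 2-fold lower in null neutrophils (2.03-fold and 1.97-fold). The null arrays of 1440370_AT at day 4 and of 1423917_A_AT at day 8 read below the floor. The sizes of those falls are therefore less certain than their direction.

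**Figure D2:**
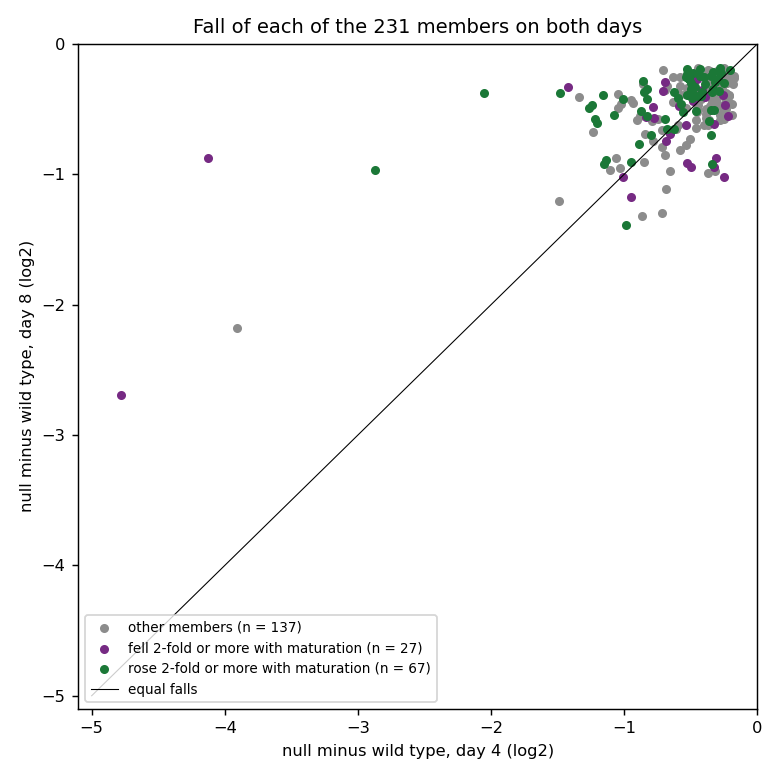
Null minus wild type in log2 units for each of the 231 members, day 4 on the x axis and day 8 on the y axis, with the line of equal falls; colours mark members that rose (67) or fell (27) by 2-fold or more from day 4 to day 8, and the 137 others. Most points lie between 0 and -1 on both axes, and the point at the far left is 1455869_AT, at -4.78 and -2.69.

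The rule did not use the day change, taken as the mean of both genotypes, but it is linked to it. Over all probe sets the median null difference on day 4 was -0.13 among those that rose by 2-fold or more from day 4 to day 8 and 0.08 among those that fell by as much (log2), so a rule that asks for lower null arrays on day 4 takes more of the first. The shares that follow are therefore a description of the set. A larger share of the members than of all probe sets rose with maturation, and a smaller share fell. Limma called 126 members (54.5%) higher on day 8, against 40.4% of all probe sets tested, and 73 (31.6%) lower, against 43.4%. For 32 members (13.9%) no change was called, against 16.3% of all tested. The median day change was 0.31 among the members and -0.01 over all tested (log2). Members can share a transcript and are not independent, so the shares were set side by side without a test. The balance depends on the scaling: when the hybridization controls set the scale, the median day change of all probe sets moved to -0.27, 106 members were called higher and 96 lower, and 33.7% of all day calls were higher in place of 48.2%.

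Large changes were counted in the same way. By 2-fold or more, 67 members (29.0%) rose and 27 (11.7%) fell, while 13.4% of all probe sets rose and 20.4% fell by as much. By 4-fold or more, 35 members (15.2%) rose and 9 (3.9%) fell, against 4.16% and 6.65% of all. By 16-fold or more, 10 members (4.33%) rose, against 0.6% of all, and 0 fell, against 0.435%. The wild-type mean lay below the floor for 8 members on day 4 and for 6 on day 8. With null lower still, these passed the floor only through the day on which they read high. Among the 10 were 1449909_AT, 1453782_AT and 1418069_AT, with both day 4 means below the floor. Such cases were not counted over all probe sets. Every one of the 17 alternatives of processing, array choice or genotype left the count of members called higher between 106 and 129 and the count called lower between 63 and 96.

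**Figure D3:**
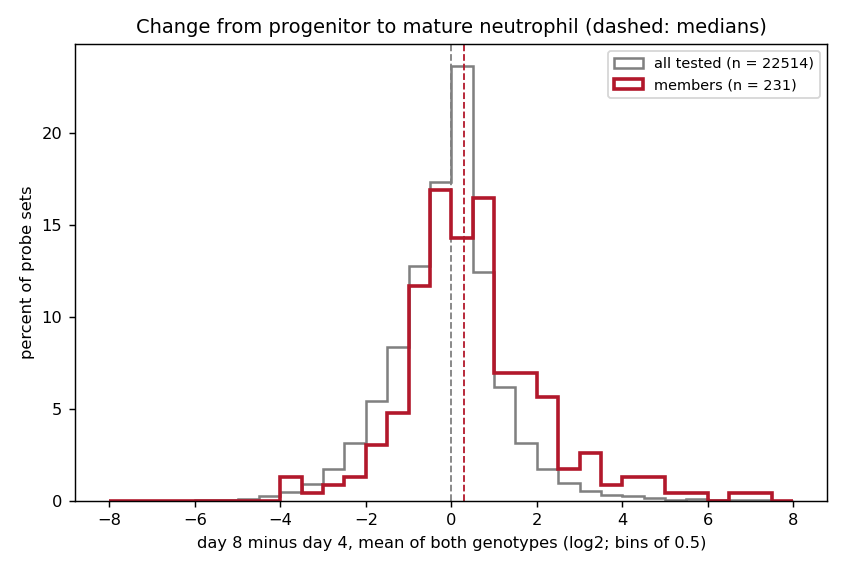
Percent of probe sets by their log2 change from day 4 to day 8, averaged over both genotypes, in bins of 0.5; red is the 231 members, grey is all 22514 probe sets above the floor, and dashed lines are the medians (0.31 and -0.01). The red line lies above the grey one in every bin from 0.5 to 6 and below it for most falls.

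The steepest rise was that of 1452732_AT. It read 5.87 and 6.01 in wild type and 4.78 and 4.81 in null at day 4, and 12.90 on both wild-type arrays against 11.95 and 12.02 in null at day 8. Its day change was 7.07 (log2; SE 0.06, adjusted p = 2.3e-14 in the limma fit), and higher on all 4 day 8 arrays than on any day 4 array. The rise was 135-fold as the mean of both genotypes, and null read 2.22-fold below wild type on day 4 and 1.89-fold below on day 8. The next was 1418069_AT, with 5.24 and 5.60 in wild type and 4.77 and 4.93 in null at day 4, and 11.75 and 11.99 against 11.43 and 11.39 at day 8. It rose by 6.51 (SE 0.09, adjusted p = 9.64e-13 by limma) and was 1.48-fold and 1.37-fold lower in null. Day 4 means near or below the floor make the size of both rises depend on the background correction. For 1418069_AT the day 4 means were 5.42 in wild type and 4.85 in null, so it passed the floor only through its day 8 readings.

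The steepest falls with maturation were those of 1438752_AT and 1455007_S_AT. The first read 10.17 and 10.02 in wild type and 9.43 and 9.36 in null at day 4, and 6.28 and 6.19 against 5.99 and 5.90 at day 8. It dropped by 3.66 (SE 0.07, limma adjusted p = 5.58e-12). The second read 7.76 and 8.07 against 7.45 and 7.59 at day 4, and 4.25 and 4.29 against 3.85 and 3.87 at day 8. It dropped by 3.65 (SE 0.10, limma adjusted p = 4.88e-11), to readings below the floor in both genotypes. This member thus passed the floor only through its day 4 readings. In null progenitors they were lower by 1.62-fold and 1.31-fold. The rule asked for lower null arrays on both days, so the order of the genotypes after the drop was fixed by it.

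Of the 4 leading members by fall in null, 1436883_AT dropped by 1.28 from day 4 to day 8 (SE 0.06, limma adjusted p = 1.49e-09). For 1455869_AT the day change was -1.06 (SE 0.32, limma adjusted p = 0.00959). The value was -2.11 in wild type alone and -0.02 in null alone (adjusted p = 0.968). It came to -0.66 when wild-type day 4 replicate 2 was left out, and leaving out wild-type day 8 replicate 1 ended the call (-0.75, adjusted p = 0.0503; 4.84e-06 to 0.968 over the 17 alternatives). The value for 1431213_A_AT was -0.71 (SE 0.38, limma adjusted p = 0.105), which did not pass. In wild type alone it was -1.58 (adjusted p = 0.0208). It passed without wild-type day 4 replicate 1 (-1.19, adjusted p = 0.00443) or day 8 replicate 2 (-1.09, adjusted p = 0.0225), but shrank to -0.24 (adjusted p = 0.475) without wild-type day 4 replicate 2 and to -0.33 (adjusted p = 0.422) without day 8 replicate 1. The adjusted p ran from 0.00108 to 0.812 over the 17. For 1426936_AT it was 0.23 (SE 0.10, limma adjusted p = 0.0472), a call lost in 9 of 17 alternatives, of which 1, the hybridization controls, turned the value to -0.03 (adjusted p from 0.00365 to 0.81 over the 17). Leaving out either wild-type day 8 array, or replicate 2 of any of the other 3 groups, each ended that call (0.13 to 0.27, adjusted p from 0.0553 to 0.176).

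Members that rose with maturation and members that fell were lowered in null to different extents on the 2 days. The 67 that rose by 2-fold or more had a median null difference of -0.52 on day 4 and -0.38 on day 8 (log2), and the fall was larger on day 4 in 55 of them. The 27 that fell by 2-fold or more had medians of -0.54 and -0.57, with the larger fall on day 4 in 12. The remaining 137 had medians of -0.38 and -0.40, with the larger fall on day 4 in 70. Among all probe sets that rose by 2-fold or more, members or not, the median null difference was -0.13 on day 4 and 0.02 on day 8, and among all that fell it was 0.08 and 0.05. Differences between these classes were not tested.

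The position of the day 4 arrays along the maturation axis moved with that result. On the first principal component, which held 94.8% of the variance and ran from day 4 to day 8, wild-type day 4 replicate 1 stood at -84.2 and replicate 2 at -95.1. The null day 4 arrays stood at -98.6 and -100.5, farther from the day 8 arrays, which lay at 90.9 to 100.5. Within wild type, replicate 1 read above replicate 2 in 52 of the 67 members that rose (77.6%), against 58.4% of all probe sets that rose by as much. It did so in 33.3% of the members that fell, against 19.7% of all that fell, and in 57.7% of the other members, against 46.3%. The share was thus higher among the members in every class. Averaged over the 67 members that rose and set relative to each member's own mean, the wild-type day 4 arrays read -0.78 and -1.01 and the null day 4 arrays -1.54 and -1.60. The part of this shift in the falls of those members was not tested.

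On day 8 the arrays stood at 90.9 and 100.5 in wild type and at 93.7 and 93.4 in null on that component. The same 67 members read 1.44 and 1.48 in wild type and 0.98 and 1.05 in null. The 27 that fell with maturation read 1.29 and 1.45 in wild type against 0.49 and 0.53 in null at day 4, and -0.60 and -0.57 against -1.31 and -1.28 at day 8. The rule asked each member to read lower in null on both days. The order of the genotypes in these class means was therefore fixed by it. The second component held 1.95% of the variance and placed all wild-type arrays above 0 (7.92 to 15.8) and all null arrays below (-16.5 to -10.4).

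**Figure D4:**
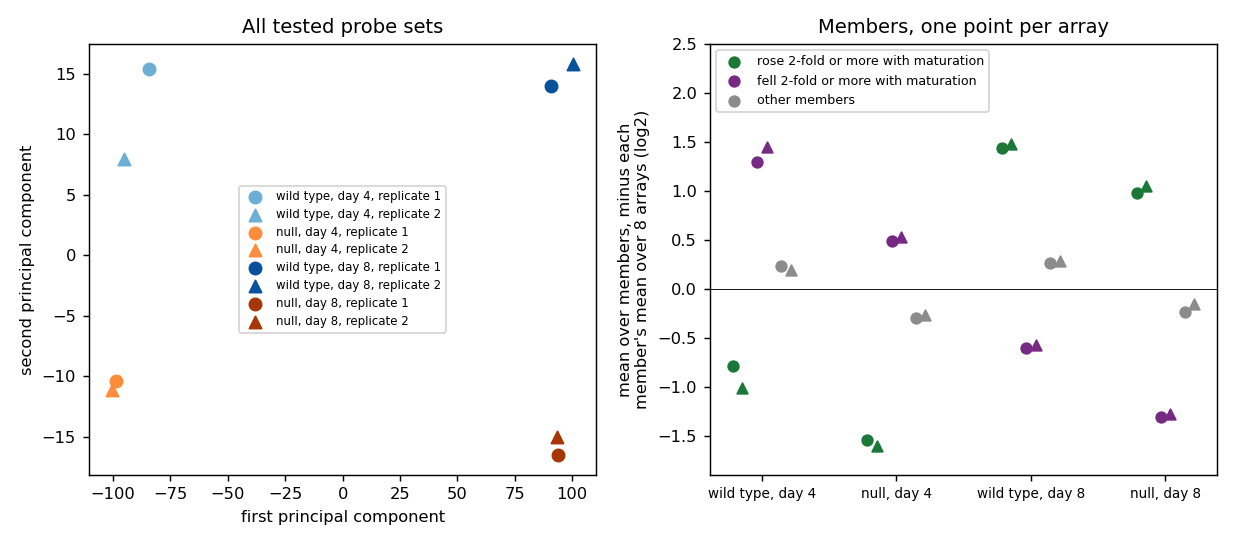
Left, first and second principal components of all probe sets above the floor, 1 point per array; right, for each array, the mean over members of the log2 signal minus each member's own mean, for members that rose (green), fell (purple) or did neither by 2-fold or more with maturation, circles for replicate 1 and triangles for replicate 2. Null day 4 arrays lie at -98.6 and -100.5 on the first component. Each class reads lower in null than in wild type on both days, as the rule required of every member.

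The members were also set beside all probe sets by the type of their identifier. By the suffix that Affymetrix gives to an identifier, 175 members (75.8%) were plain, against 72.6% of those above the floor. The suffix S, given where probes match more than a single transcript, was carried by 7.79% of members and 6.56% of all, and X, given where some probes may cross-hybridize, by 6.93% and 6.56%. The suffix A, for variants of the same gene, was carried by 9.52% of members and 14.3% of all. In 5 pairs of members the identifiers were consecutive numbers. Their day 4 falls were within 0.3 of each other in 5 of the 5 pairs and their day 8 falls in 4, while the day change had the same sign in 3. Whether such pairs measure the same transcript is not given.

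The edge of the set was not marked by any break. The 3 members with the smallest gap on their narrower day had gaps of 0.151 to 0.152, and the 3 nearest probe sets outside had 0.1498 (log2). Null means of the 3 inside lay 0.18 to 0.71 below wild type on day 4 and 0.19 to 0.31 below on day 8. Those of the 3 outside lay 0.28 to 0.34 below and 0.19 to 0.27 below. A gap of at least 0.05 would have taken 874 probe sets and a gap of at least 0.30 only 67.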

How the data were processed

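The deposited values are 1 log2 signal per probe set and array, as the authors left them. Base 2 was inferred from the range of the values. The submitters' processing notes name GCOS and no other tool. How probes were background-corrected, summarized and normalized is "not given in the sources used here". Array medians spanned only 0.052, and no further normalization was applied. Background correction limits fold changes of readings near or below 5.51, and equalized arrays hide changes in total RNA.

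A linear model of the 4 group means was fitted to 22514 probe sets in limma 3.58.1 (R 4.3.3; lmFit, and eBayes with an intensity trend; 4 residual degrees of freedom). Tests were two-sided, with Benjamini-Hochberg adjustment over all probe sets tested and a threshold of 0.05. The number of arrays limits the precision: with 2 against 2, the exact permutation p of any single feature is at least 0.333. Scripts were tested on simulated data. Members, gene lists and the rule for named probe sets (the largest falls on the weaker day, the largest day changes, the edge of the gap) were chosen with earlier results of these data known. Lists that need gene names were not run. Identifiers without a gene say little, so only some of the ranked members are named, with those that a small count or a shared pattern points to. Alternatives were 4 normalizations, other filters and gaps, no trend, a replicate block, single genotypes, and leaving out each array.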

Additional observations from a re-analysis of the deposited data

How the results depend on the processing

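The set held 874 probe sets at a gap of 0.05 and 67 at 0.30, and 328 to 446 when single arrays were left out. The other 6 alternatives gave 162 to 280. Day calls among the members stayed within 1.5 times under all 17 alternatives, with single arrays left out giving 122 to 127 higher and 69 to 76 lower. In null alone the day change of 1431213_A_AT turned to 0.15, and scaled to the hybridization controls that of 1426936_AT turned to -0.0297.

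The counts over all probe sets were less stable. Without the intensity trend, 179 were called lower and 43 higher in null on day 4 (482 and 131 as reported), and 157 lower and 590 higher on day 8 (274 and 921). Scaled to the hybridization controls, 205 were lower and 221 higher on day 4, and 327 higher on day 8. Leaving out 1 array gave 100 to 973 lower and 27 to 701 higher on day 4, and 67 to 414 lower and 289 to 1280 higher on day 8; 1 lone array is then assumed to vary like the other groups.

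With a replicate block, 126 members were called higher and 74 lower between days, and 1431213_A_AT passed (-0.71, adjusted p = 0.0193). The replicate differences of the groups correlated at -0.045 to 0.22 across probe sets, so the numbers were not taken to pair the samples.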
